A study of Mus musculus with 4 samples.

Results

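The *Ces1* cluster is a row of carboxylesterase genes on mouse chromosome 8, and its 7 members, *Ces1a* to *Ces1g*, were taken by symbol from the mm9 annotation (NCBIM37, GENCODE) out of 22367 protein-coding genes. Their place relative to the nuclear lamina was read from DamID of primary hepatocytes. Cells came from WT mice and from mice in which *Tm7sf2*, the gene of the nuclear envelope protein Tm7sf2/NET47, was disrupted in the whole animal (KO). Mice of both genotypes were on a C57BL/6 background and 12 to 16 weeks old at isolation. Hepatocytes were exposed for 24 h to lentivirus carrying either Dam-LaminB1 or Dam only and were harvested after further culture, the length of which the sources state in different ways. The 4 libraries, WT Dam-LaminB1, WT Dam only, KO Dam-LaminB1 and KO Dam only, each held the pooled DNA of 4 mice. With 1 library of each construct per genotype, values carry no error between animals, no test between genotypes was possible, and a difference between genotypes cannot be told apart from a difference between libraries. The deposited lists give the borders of lamina-associated domains (LADs) for each genotype and of differential regions (DRs), without read numbers or a signal, so that the depth behind a single border is unknown. The lists hold no expression values, so the hepatocyte label could not be checked against marker genes in them.

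In DamID, a bacterial adenine methylase fused to LaminB1 marks GATC sites of DNA near the nuclear lamina, and free Dam methylase accounts for the accessibility of the DNA. LADs in general hold few active genes, although position and expression need not go together. Carboxylesterases of the Ces1 family are serine hydrolases, most of them held in the endoplasmic reticulum of hepatocytes, that split ester and amide bonds of drugs and lipids. Humans carry a single functional *CES1*, whereas the mouse has a tandem array of copies.

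The GATC sites at the borders are shown first, because DamID reads DNA cut at such sites. Each run holds 30 bases of the NCBIM37 plus strand, with the site in capitals. The first pair bounds the WT LAD over *Ces1d* (chr8:95687922-95687951 and chr8:95706157-95706186). The next 4, in the order of the chromosome, bound the KO LAD and the shorter WT LAD at the 3′ end of *Ces1g* (chr8:95811973-95812002, chr8:95818816-95818845, chr8:95829265-95829294 and chr8:95843711-95843740). The last pair lies above the *Ces1g* start: a site inside no LAD (chr8:95861655-95861684) and the site at which a further WT LAD began (chr8:95862503-95862532).
WT LAD start at Ces1d: agagtccagtgaaGATCccctcacttgtca
WT LAD end at Ces1d: tttataacatctgGATCcagccatgtcttg
KO LAD start at Ces1g: taatcttgactctGATCgcccagggaacta
WT LAD start at Ces1g: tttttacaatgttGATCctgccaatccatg
WT LAD end at Ces1g: gggttaaagctttGATCccctcctgatggt
KO LAD end at Ces1g: tcaccattggaatGATCcagccaaactcat
site above the Ces1g start: ctaaggtcagagaGATCactattttaaaga
WT LAD start above Ces1g: attaggttttcagGATCcaaagccacagct

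A GATC site lay at each of these borders, and at 742 of 746 WT and 1524 of 1532 KO LAD borders of chromosome 8, which is 99.5% in both lists. The next sites stood 271 bp below and 380 bp above the lower border of the *Ces1d* LAD, and 655 bp below and 1334 bp above its upper border. These distances are the step by which a border could move by a single fragment.

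Most of the cluster lay outside LADs in both genotypes. *Ces1a*, *Ces1b*, *Ces1c*, *Ces1e* and *Ces1f* had 0 bases in a LAD of WT or KO, *Ces1d* had a LAD in WT only, and *Ces1g* had a longer LAD in KO than in WT. A WT LAD thus touched 2 of 7 members (30.4% of all genes), a KO LAD 1 of 7 (41.7%), and 5 of 7 had a LAD in neither genotype (56.0%). Genes were classed as PI where at least 1 base of the span lay in a WT-only DR (peripheral in WT, internal in KO), as IP where it lay in a KO-only DR, and as ambiguous (AMB) with both. Genes without a DR were PP if LADs of both genotypes touched them and II otherwise. A DR is a stretch of at least 10 kb that is LAD in one genotype and not in the other. By this rule 5 of 7 members were II, against 56.6% of all 22367 genes. PI held 1 member, *Ces1d* (5.43% of all genes), and IP held 1, *Ces1g* (17.1% of all genes). No member was PP or AMB, classes that held 17.9% and 2.96% of all genes. On chromosome 8, 64.7% of 1082 genes were II, 3.33% PI and 17.7% IP. The members share their locus and are not independent of each other, so their count is a description of it.

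**Figure D1:**
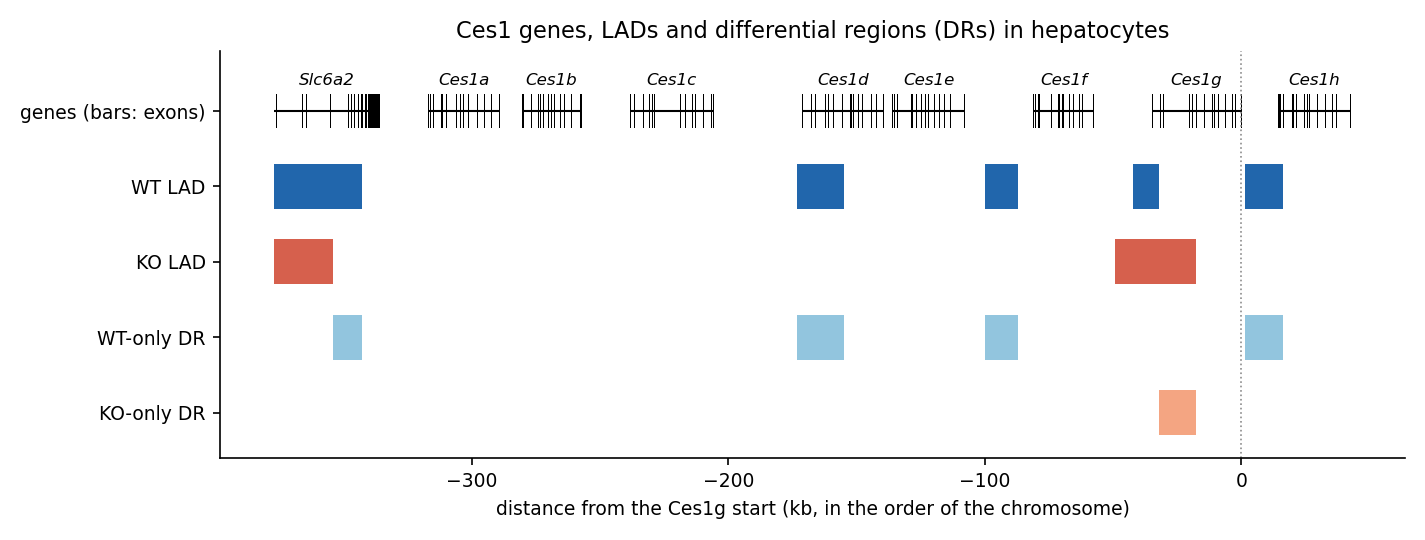
Map of the *Ces1* cluster with the *Ces1g* start at 0 kb and distances in the order of the chromosome. The top row shows gene spans as lines with exons as bars (the *Ces1* genes are read from right to left), and the rows under it show WT LADs, KO LADs, WT-only DRs and KO-only DRs. A KO gap of 305 kb holds *Ces1a* to *Ces1f*, and the only KO LAD of the cluster ends inside *Ces1g*.

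All 7 members lie on the minus strand, so that the 3′ end of each has the lower coordinate. *Ces1a* (ENSMUSG00000071047.4, chr8:95544113-95572091) and *Ces1b* (ENSMUSG00000078964.1, chr8:95580626-95603916) spanned 28.0 kb and 23.3 kb. The nearest LAD to the *Ces1a* span was 25.9 kb away in WT and 37.0 kb in KO, and that to *Ces1b* 62.4 kb and 73.5 kb. *Ces1c*, which encodes a secreted esterase of blood plasma (ENSMUSG00000057400.6, chr8:95622914-95655182, 32.3 kb), was 32.8 kb from a LAD in WT and 116 kb in KO. These 3 genes shared a WT gap between LADs of 169.7 kb, longer than 86.9% of the gaps in the WT list.

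*Ces1e*, known as egasyn, which holds beta-glucuronidase in the endoplasmic reticulum (ENSMUSG00000061959.6, chr8:95725117-95753518, 28.4 kb), was the only gene wholly inside a WT gap of 55.3 kb. Its start was 7.93 kb from a WT LAD and 58.5 kb from a KO LAD. *Ces1f* (ENSMUSG00000031725.8, chr8:95780135-95803646, 23.5 kb) lay in a WT gap of 44.7 kb, with LADs of WT 6.03 kb and of KO 8.34 kb from its span. Between *Ces1e* and *Ces1f* the WT list had a LAD of 12.7 kb (chr8:95761449-95774102) that touched no protein-coding gene and was 37.9 kb from any KO LAD. Both genes were thus flanked by WT LADs while their own spans held none.

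*Ces1d* encodes the triacylglycerol hydrolase that mobilizes stored triglyceride for VLDL assembly (ENSMUSG00000056973.6, chr8:95689967-95721737, 31.8 kb). In WT, 16.2 kb of it, 51.0% of the span, lay in a LAD of 18.2 kb (chr8:95687938-95706172). In KO, 0% of the span lay in a LAD and the nearest KO LAD was 106 kb from the WT LAD. The whole WT LAD was therefore a WT-only DR, and it ran 2.03 kb past the 3′ end of the gene. Its length was above that of only 23.7% of the 8107 WT LADs, whose median was 40.8 kb.

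*Ces1g*, or esterase-x, a hydrolase linked to liver lipid content (ENSMUSG00000057074.6, chr8:95826268-95861207, 34.9 kb), differed from *Ces1d* in direction. In WT, 3.01 kb or 8.62% of the span lay in a LAD of 10.4 kb (chr8:95818832-95829280), a length that only 1.97% of WT LADs fell under. The shortest LAD was 10003 bp in the WT list and 10002 bp in the KO list, so this LAD was near the lower limit of the lists. In KO, 17.5 kb or 49.97% lay in a LAD of 31.7 kb (chr8:95811989-95843726), which contained the whole WT LAD. The KO LAD exceeded the WT LAD on both sides: by 14.4 kb inside the gene, which made a KO-only DR over 41.3% of the span, and by 6.84 kb below the gene, too short for a DR. In the lists as deposited, the share of *Ces1g* in LADs was thus higher in KO, and that of *Ces1d* higher in WT. *Ces1g* turned to PI with LADs joined across gaps of up to 50 kb, and *Ces1d* became II with DRs or LADs of at least 20 kb.

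**Figure D2:**
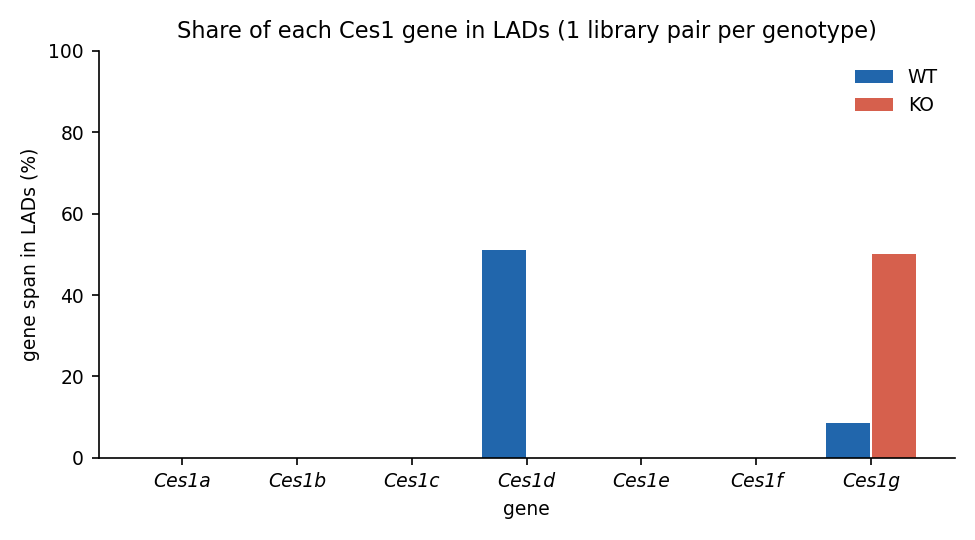
Share of each *Ces1* gene span in LADs, in percent, for WT and KO, with 1 library pair per genotype and no error bars. *Ces1d* reaches 51.0% in WT and 0% in KO, *Ces1g* reaches 8.62% in WT and 49.97% in KO, and the other members have no bar.

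In both genes the LAD covered the 3′ part and left the start free. All members had 14 exons except *Ces1c* with 13, which makes 97 exons in all. LADs touched 7 of these in WT only, 5 in KO only, 1 in both genotypes and 84 in neither. The matching shares of all exons were not counted, nor was the share of all genes with a LAD in the 3′ part only. The exon counts are therefore a description of this locus. The 7 WT-only exons were exons 8 to 14 of *Ces1d*. The 5 KO-only exons were exons 9 to 13 of *Ces1g*, and exon 14 of *Ces1g* was in a LAD in both genotypes. Exons 2 to 13 have the same lengths in both genes, from 39 bp for exon 8 to 205 bp for exon 2, so the exons covered in WT at *Ces1d* and in KO at *Ces1g* are nearly the same ones by number.

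The KO border at *Ces1g* lay within the coding sequence. Exon 9 (chr8:95843715-95843855, minus strand) had 12 of 141 bp in the KO LAD and 0 in a WT LAD. The matching exon of *Ces1d* (chr8:95701930-95702070, minus strand) had all 141 bp in a WT LAD. They are printed in the direction of the gene, with GATC in capitals, to show the site at that border.
Ces1d exon 9: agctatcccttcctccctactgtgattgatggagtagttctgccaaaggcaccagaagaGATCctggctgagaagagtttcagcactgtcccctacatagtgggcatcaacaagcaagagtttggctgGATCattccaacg
Ces1g exon 9: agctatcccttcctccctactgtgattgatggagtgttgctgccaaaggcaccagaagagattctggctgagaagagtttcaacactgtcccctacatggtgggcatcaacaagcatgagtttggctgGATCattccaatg
The exons were identical at 133 of 141 bases (94.3%). *Ces1d* held 2 GATC sites here and *Ces1g* 1, the site of the KO border. The site shared by both exons was a border in *Ces1g* only.

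No start site of a member lay in a LAD of either genotype, whereas a WT LAD held the start of 22.7% of all genes and a KO LAD that of 32.6%. From the start of *Ces1a* the nearest LAD was 53.9 kb away in WT and 65.0 kb in KO. For *Ces1b* the distances were 84.0 kb and 96.8 kb, and for *Ces1c* 32.8 kb and 148 kb. The start of *Ces1d* was 15.6 kb from a LAD in WT, the one in its own 3′ part, and 90.3 kb in KO. In these genes and in *Ces1e*, the start was nearer to a LAD in WT than in KO. *Ces1f* was the exception, with 15.2 kb in WT and 8.34 kb in KO.

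The start of *Ces1g* was the closest to a LAD, at 1.31 kb in WT. This was not the LAD at its 3′ end but a separate WT LAD of 14.8 kb above the start (chr8:95862519-95877325), which had no KO counterpart within 18.8 kb. In KO the nearest LAD to the start was 17.5 kb away, inside the gene. The *Ces1g* start was thus nearer to a LAD in WT, while the gene body had more bases in LADs in KO. The next GATC site under the border of the upper WT LAD stood 848 bp lower and 461 bp above the start. Moving this border by a single fragment would leave the start outside. How far the border could be off is not known from the lists, so the place of the start outside this LAD was not tested.

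**Figure D3:**
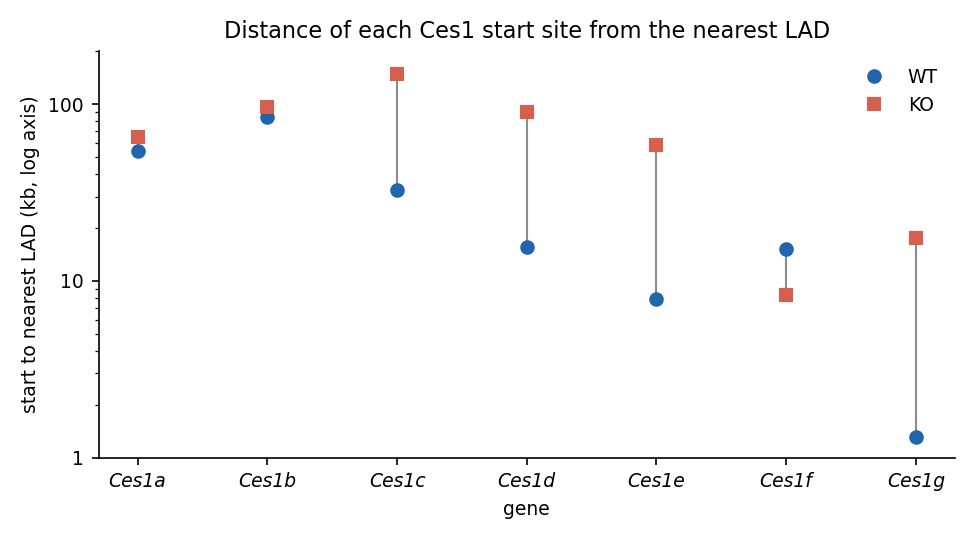
Distance in kb, on a log axis, from each *Ces1* start site to the nearest LAD in WT and KO. *Ces1g* is lowest in WT at 1.31 kb, *Ces1c* is highest in KO at 148 kb, and *Ces1f* is the only member with the KO point under the WT point.

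RefSeq start sites were also looked up. Of the members, 5 of 7 had a RefSeq promoter (GRCm38.p6), in 6 entries, each of which was found once on NCBIM37 chromosome 8 by an exact match of the 250 bases before the start. These starts were up to 99 bp from those of the annotation, whereas the LAD nearest to any annotated start was 1.31 kb away. None lay in a LAD of either genotype, an outcome that so small a shift could not have changed. For *Ces1g* the RefSeq start was 1.41 kb from a LAD in WT and 17.4 kb in KO. The letters GATC, which read the same on both strands, occurred in 2 of the 6 entries, those of *Ces1a* and *Ces1g*, and in 41.9% of all 32851 promoters of the table.

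Over the 317 kb from the first to the last base of the cluster, 13.0% (41.3 kb) was in WT LADs and 10.01% (31.7 kb) in KO LADs. This order turned with LADs of at least 20 kb, at 0% in WT and 10.01% in KO. With LADs joined across 50 kb the shares were 37.2% and 10.01%. The chromosome as a whole was at 53.1% and 53.8%. The 500 kb on the *Ces1a* side were at 77.5% in WT and 61.2% in KO, and the 500 kb on the *Ces1g* side at 45.6% and 39.1%. The cluster was therefore a stretch of low LAD coverage between flanks of higher coverage in both genotypes. WT-only DRs took 9.74% of the cluster and KO-only DRs 4.56%, next to 5.77% and 6.87% of chromosome 8. Here too the order turned with LADs of at least 20 kb, at 0% and 10.01% of the cluster. Within the cluster, LADs covered 9.51% of the gene spans in WT and 8.64% in KO, and 19.2% and 12.4% of the DNA between the genes.

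The longest stretch without a LAD was in KO. It was 305 kb long (chr8:95507112-95811988) and held *Ces1a* to *Ces1f* whole. Of 16055 KO gaps, 708 were at least as long, and 95.6% were shorter. In WT the same stretch was broken by the LADs at *Ces1d* and between *Ces1e* and *Ces1f*, and the WT LAD at *Slc6a2* reached 11.1 kb into its lower end.

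**Figure D4:**
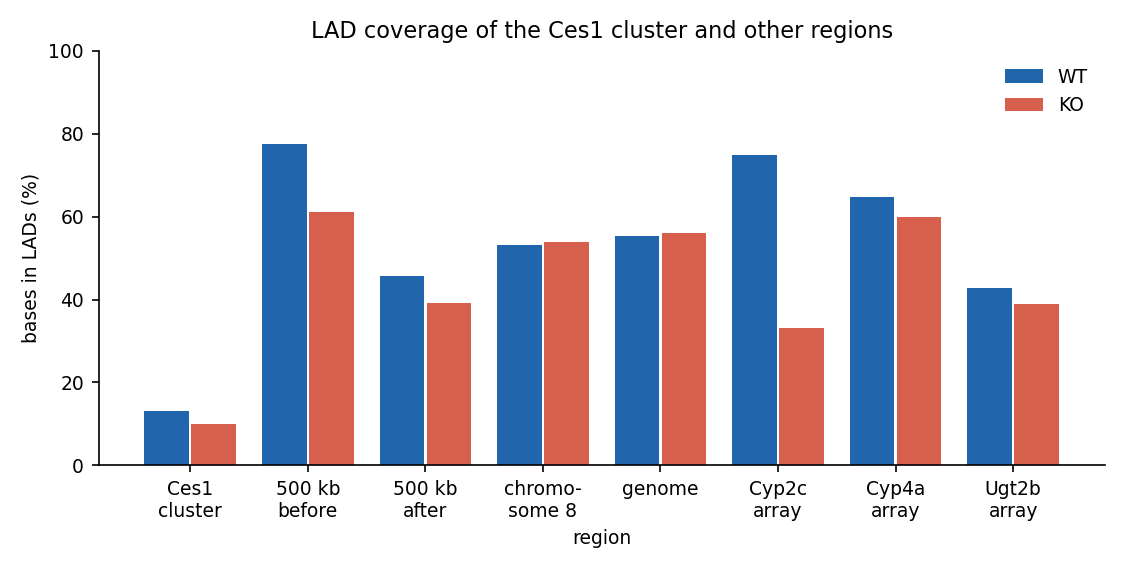
Percent of bases in LADs in WT and KO for the *Ces1* cluster, the 500 kb before it (*Ces1a* side) and after it (*Ces1g* side), chromosome 8, chromosomes 1 to 19, X and Y together (genome) and 3 other tandem arrays, with *Cyp2c44* left out of the *Cyp2c* array. The *Ces1* cluster has the lowest bars, at 13.0% and 10.01%.

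Of 11 protein-coding genes within 500 kb of the cluster, 3 were PI, 3 IP, 1 AMB, 3 PP and 1 II, next to 5.43%, 17.1%, 2.96%, 17.9% and 56.6% of all genes. These genes share a locus, so their counts are a description of it. On the *Ces1a* side, *Slc6a2*, the norepinephrine transporter, was PI, with LADs over 82.3% of its span in WT and 55.6% in KO. *Lpcat2*, a lysophospholipid acyltransferase, was at 93.4% and 79.7% and AMB, and *Mmp2*, a gelatinase, at 42.3% and 33.9% and PP. *Capns2*, a calpain small subunit, was PP with its whole span in LADs of both genotypes, and the homeobox gene *Irx6* was IP. *Gm3272* was PI and *Gm17310* II.

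On the *Ces1g* side lies *Ces1h* (chr8:95875741-95903624), a further copy that the member list does not include. It was PI with 5.68% of its span in the WT LAD above the *Ces1g* start and 0% in KO. Exons 13 and 14 of *Ces1h*, at the 3′ end of the gene, lay in that LAD. Of 2 entries for *Ces5a*, a carboxylesterase also called cauxin, 1 was PP and 1 was IP with 31.9% of its span in KO LADs. *Gnao1*, a G protein alpha subunit, was IP with 48.7%. The remaining carboxylesterase genes, 11 entries of *Ces2*, *Ces3* and *Ces4* further along chromosome 8, were all II, a class that held 56.6% of all genes and 64.7% of those on chromosome 8. These entries lie close together and are likewise not independent of each other.

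The *Cyp4a*, *Ugt2b* and *Cyp2c* arrays of liver enzymes had a larger share of bases in LADs than the *Ces1* cluster. The *Ces2*, *Ces3* and *Ces4* entries named above had 0% of their spans in LADs of either genotype. The *Cyp4a* array (fatty acid hydroxylases, 6 genes, 323 kb) had 64.7% in WT LADs and 59.9% in KO LADs, and the *Ugt2b* array (glucuronosyltransferases, 7 genes, 534 kb) 42.7% and 39.0%. The *Cyp2c* genes of chromosome 19 (drug and steroid hydroxylases, 15 genes) were at 30.8% and 15.1% from first to last gene. This stretch includes *Cyp2c44*, which lies apart from the others, and without it the array (1180.3 kb) had 74.9% in WT and 33.2% in KO. Of the *Cyp2c* genes 12 of 15 were PI (5.43% of all genes). Of the *Cyp4a* genes 2 were PI, 3 PP (17.9% of all genes) and 1 II. Of the *Ugt2b* genes 5 of 7 were II, as were 5 of 7 *Ces1* genes (56.6% of all genes). In WT, LADs held 6 starts of *Cyp2c*, 3 of *Cyp4a*, 2 of *Ugt2b* and 0 of *Ces1* (22.7% of all genes). In KO they held 2, 2, 1 and 0 in the same order (32.6% of all genes). The genes of an array share a locus and are not independent of each other. The share of PI genes on chromosome 19 alone was not counted. The arrays differ in their number of genes, so these counts are not compared with each other.

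The members are close copies, which bears on where short reads can be placed. Coding sequences of 1665 to 1704 bases were 72.1% (*Ces1b* and *Ces1f*) to 90.9% (*Ces1b* and *Ces1c*) identical over 21 pairs, with a median of 77.2%. *Ces1d* and *Ces1g* were 81.6% identical. Of all 50-base words of the cluster, 9.36% occurred more than once in the genome and 3.26% more than once within the cluster. In the 500 kb before and after it, 3.50% and 9.13% of words were repeated in the genome. *Ces1c* held the most repeated words of the members (29.9%), and the other 6 held between 1.06% (*Ces1f*) and 3.96% (*Ces1b*).

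Repeated words were unevenly spread over the LADs. They made up 5.76% of the WT LAD at *Ces1d*, 6.18% of that between *Ces1e* and *Ces1f*, 36.4% of the WT LAD at the 3′ end of *Ces1g* and 44.8% of that above its start. The KO LAD at *Ces1g* was at 20.4%, and the KO-only DR within it at 3.52%. GATC sites were not sparse: the cluster had 900, or 2.84 per kb, next to 2.34 per kb for chromosome 8, and G+C made up 41.8% and 42.4%. The WT LAD at *Ces1d* held 47 GATC sites, the KO-only DR at *Ces1g* 32 and the WT LAD above *Ces1g* 61. The part of repeated sequence in these calls was not tested.

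**Figure D5:**
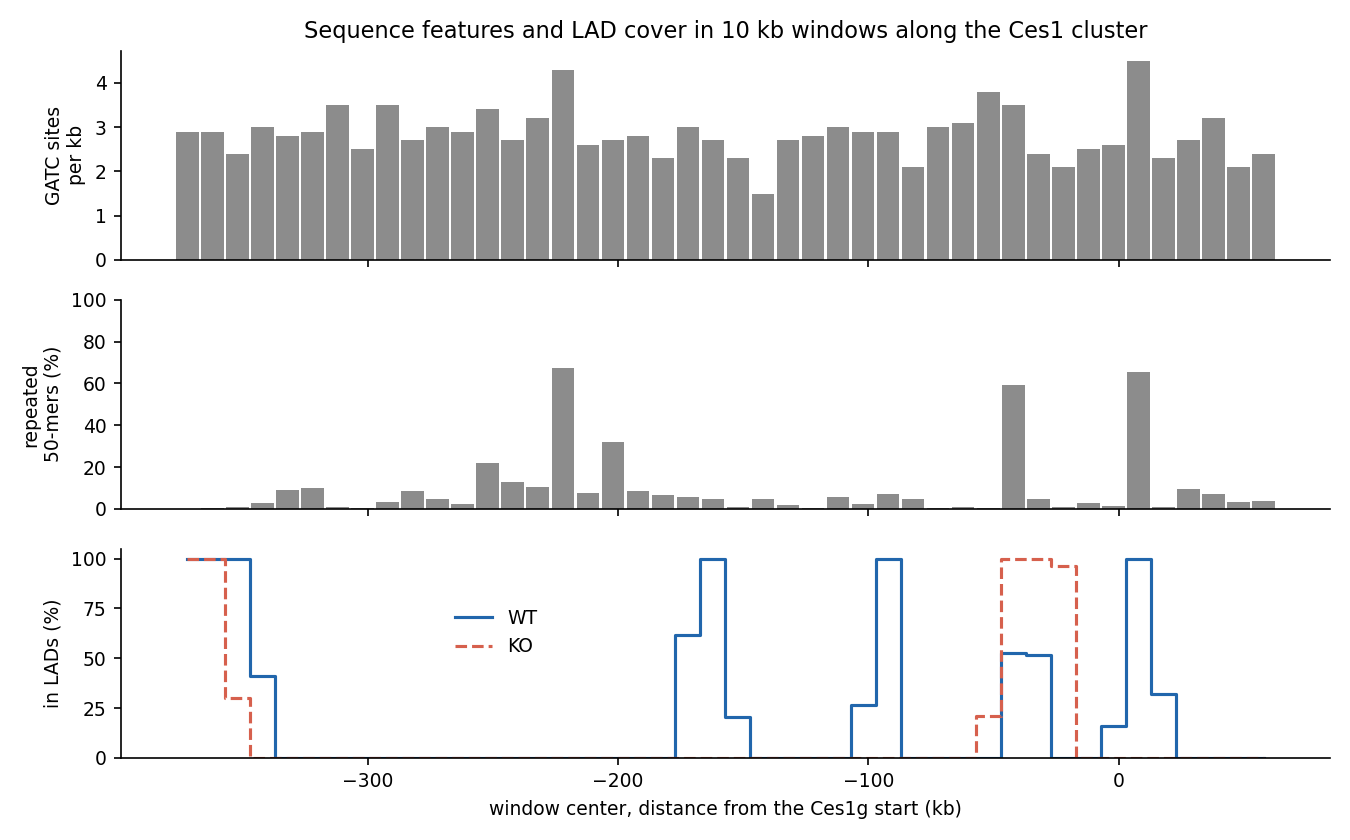
GATC sites per kb (top), percent of 50-base words that occur more than once in the genome (middle) and percent of bases in WT and KO LADs (bottom) in 10 kb windows, by distance of the window center from the *Ces1g* start in kb. Of the windows with the most repeated words, 1 lies at *Ces1c* without a LAD (67.45%), 1 under *Ces1g* in LADs of both genotypes (59.35%) and 1 above it in a WT LAD (65.25%).

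The classes of *Ces1d* and *Ces1g* depended on the definition, and the share of all genes in a class under the same definition is given in brackets. When a DR had to cover 10% of the span or more, *Ces1d* stayed the 1 PI member (4.99%) and *Ces1g* the 1 IP member (15.8%). At 50% or more, *Ces1d* was again PI (2.23%), but IP held 0 members (7.54%) and *Ces1g* was PP (26.4%), since its KO-only DR covers less than that. By start site only, all 7 members were II (65.9%), with 0 PI (2.29%) and 0 IP (11.8%). With DRs of at least 20 kb, PI and IP held 0 members (3.25% and 11.1%), and *Ces1g* was PP (22.1%). With LADs of at least 20 kb, PI held 0 members (5.44%) and *Ces1g* was IP (13.4%).

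Wider settings drew in LADs from outside the span of a gene, both between the genes and beyond the cluster, at *Slc6a2* and above the *Ces1g* start. By the 100 kb centered on each gene, *Ces1a*, *Ces1c*, *Ces1d* and *Ces1e* made 4 PI members (9.71%), *Ces1f* and *Ces1g* 2 AMB members (6.06%), *Ces1b* the 1 II member (42.2%), and IP held 0 (27.1%). With LADs joined across gaps of up to 50 kb, *Ces1d*, *Ces1f* and *Ces1g* made 3 PI members (2.81%) and IP held 0 (16.5%). The direction of *Ces1g* therefore turned under the joined LADs, in which the WT LADs on both sides of the gene became a single one.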

How the data were processed

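DamID was read in primary hepatocytes from Dam-LaminB1 and Dam only libraries of WT and *Tm7sf2* KO mice, grouped by the sample titles. The authors compared Dam-LaminB1 with Dam only as a log2 ratio over *DpnI* fragments on mm9 and called LADs with DNAcopy; the submitters' processing notes also name BWA and limma, without a role or version. The deposited values are positions (interval lists): 8107 WT LADs, 16076 KO LADs, 7787 WT-only and 8208 KO-only DRs. Per the study, KO was sequenced less deeply than WT. Repeating the subtraction of the LAD lists, with a 10 kb minimum, returned every deposited DR.

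Positions are 1-based on NCBIM37, the same assembly as mm9. Exons were taken from 1 transcript per gene, the coding one with the largest sum of exon lengths. Overlaps were counted with Python 3.11.15 and numpy 2.4.6, sequences with pysam 0.24.0 and coding alignments with Biopython 1.88 (match 1, mismatch -1, gap opening -5), and figures with matplotlib 3.10.9. Interval steps and 50-mer counts, tested on simulated data, gave 0 errors. No filter or test was applied.

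Genes named were the 7 members, genes within 500 kb, other carboxylesterases, a list of lipid hydrolase and droplet genes, liver cell markers and the 3 genes most like *Ces1g* among genes of 0.5 to 2 times its span. Members and lists were chosen with earlier results of these data known. The interval without *Cyp2c44* was added after seeing the data. Alternatives were other overlaps, windows, minimum lengths and joined LADs; a value within a factor of 1.5 counted as unchanged.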

Additional observations from a re-analysis of the deposited data

How the results depend on the processing

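No paired analysis was possible because each genotype had 1 library pair and the labels carry no replicate numbers. For the same reason no replicate could be left out. The number of PI members, 1, was 0 by start site only, with DRs of at least 20 kb and with LADs of at least 20 kb, 4 by a 100 kb window centered on the gene and 3 with LADs joined across 50 kb. The number of IP members, 1, was 0 at 50% of the span, by start site only, by the 100 kb window, with DRs of at least 20 kb and with LADs joined across 50 kb. AMB went from 0 to 2 by the 100 kb window, PP from 0 to 1 at 50% of the span and with DRs of at least 20 kb, and II from 5 to 1 by the 100 kb window. Coverage of the cluster by WT LADs, 13.0%, was 37.2% with LADs joined across 50 kb and 0% with LADs of at least 20 kb, since the 3 WT LADs of the cluster are shorter. Coverage by WT-only DRs, 9.74%, was 0% with DRs or LADs of at least 20 kb and 27.2% with LADs joined across 50 kb. Coverage by KO-only DRs, 4.56%, was 7.15% over gene spans only, 0% with DRs of at least 20 kb and with LADs joined across 50 kb, and 10.01% with LADs of at least 20 kb. With LADs of at least 20 kb, exons in WT LADs only fell from 7 to 0 and exons in LADs of both genotypes from 1 to 0. Without *Cyp2c44*, an alternative chosen after seeing the data, the *Cyp2c* array was at 74.9% in WT LADs and 33.2% in KO LADs, against 30.8% and 15.1%. The other 68 alternatives stayed within a factor of 1.5. Starts in LADs were 0 under each alternative run for them. These were the outermost start, a 2 kb window at the start, LADs joined across 20 kb and LADs of at least 20 kb. A minimum length can only take LADs away, and every gap that holds a start is longer than 20 kb. Neither of these LAD settings could therefore have placed a start in a LAD. LADs joined across 50 kb were not run for start sites. That setting closes the WT gaps of 44.7 kb and 33.2 kb, which hold the *Ces1f* and *Ces1g* starts. The error of LADs near the minimum length, and of KO borders read at a lower depth, could not be estimated.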

Other observations

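Of 24 lipid hydrolase, lipid droplet and VLDL assembly genes, 20 were II, 4 IP, 0 PI and 0 PP, next to 56.6%, 17.1%, 5.43% and 17.9% of all genes. More of the list was II, and less of it PP, than of all genes. The list was chosen with earlier results of these data known, so nothing particular to it is read from its count. The 4 IP genes were *Mttp*, the microsomal triglyceride transfer protein, with 28.0% of its span in KO-only DRs, *Aadac*, an arylacetamide deacetylase, with 20.4%, the cholesteryl ester hydrolase *Nceh1* with 12.4% and the phospholipase *Pnpla8* with 52.3%. Of 6 hepatocyte markers 5 were II, and *Cps1*, of the urea cycle, was PI with 9.38% of its span in WT-only DRs. Of 9 markers of other liver cells, 4 were II, 3 IP (*Cd5l*, *Stab2* and *Epcam*), 1 PI (*Emr1*) and 1 PP (*Lrat*). The lists hold no expression values, so the purity of the cultures was not tested.

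The genes whose split between LADs of WT, KO, both and neither was most like that of *Ces1g*, out of 6978 genes of comparable span, were *Zfp948* (summed difference 3.67 percentage points), *Atg4c* (12.3) and *Uchl3* (13.6). *Ces1g* had 41.3% of its span in LADs of KO only and 8.62% in LADs of both genotypes, and *Zfp948* had 41.7% and 10.1%.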
